A study of Mus musculus with 6 samples.

Results

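The genes described here are 49 genes of DNA replication and S phase. They were measured in mouse hepatocytes of wild type and of a knockout of the splicing factor SRSF1. The genes were listed by symbol for their function. For each, the transcript cluster (the array's summary for 1 transcribed locus, not 1 isoform) with the highest mean was taken. All 49 had a cluster named for that gene alone, and all 49 passed the filter on dim clusters, out of 19123 genes fitted. The filter was mild, as these were 19123 of 20261 genes, so passing it does not show clear expression. The study hybridised total RNA of primary hepatocytes to mouse exon arrays, 1 array for each of 3 wild type and 3 knockout samples. All samples had a C57BL/6 background, came from mice aged 3 months by perfusion of the liver, and were untreated. The knockout, labelled SRSF1HKO, was of SRSF1 in hepatocytes; the labels name neither the promoter that drives the deletion nor the exons it removes. The labels call the samples primary hepatocyte cultures, with no time in culture. The labels do not say that each sample was a separate animal. The sex-linked genes below set 1 knockout array apart from the others, and for the remaining arrays the spread behind the p-values may be technical.

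DNA replication begins at origins bound by the origin recognition complex, onto which Cdc6 and Cdt1 load the ring of Mcm2 to Mcm7, the core of the replicative helicase. Kinases, Cdc45 and the GINS complex then activate the helicase, and DNA polymerases alpha, delta and epsilon copy the strands with the sliding clamp Pcna. Most of these genes are transcribed towards S phase by E2F factors held back by the retinoblastoma proteins in resting cells. Hepatocytes of the adult liver rarely divide, but they re-enter the cycle after injury and become polyploid with age.

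E2F factors bind a short motif near the start of many of these genes, so the letters of that motif are shown first. Promoter windows (250 bases before to 50 after the gene start, RefSeq, GRCm38.p6) were matched by symbol for 41 of the 49 genes, with 51 windows in all. The windows of Gins1, Gins2, Gins4, Gmnn, Mcm4, Pole, Prim2 and Rfc2 were not used here. A window counted as holding the motif where it had TTTGGCGC, TTTCGCGC, TTTCCCGC or TTTGCCGC on either strand, and overlapping matches were allowed. The motif was in 17 of the 51 windows, 33.3%, and in 2.26% of all 32851 promoter windows of the table. Among the 8985 windows with a like number of CpG dinucleotides (12.5 to 30, the interquartile range of the members' windows) it was in 4.79%. The 5 stretches below were chosen because they lie before the gene start and hold a match, which stands in capitals. Mcm6 is the member that passed the test below, Orc1 and Cdc6 are the members with a match that had the largest p, and Mcm5 and Mcm7 are further helicase subunits, added after their values were seen.
Mcm6: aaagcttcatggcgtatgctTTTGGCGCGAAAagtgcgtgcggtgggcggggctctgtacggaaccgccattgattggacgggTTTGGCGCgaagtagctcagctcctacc
Mcm5: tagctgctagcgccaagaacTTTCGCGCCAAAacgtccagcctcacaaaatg
Mcm7: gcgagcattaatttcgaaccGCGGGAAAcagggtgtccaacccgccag
Orc1: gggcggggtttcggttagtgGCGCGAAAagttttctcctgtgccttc
Cdc6: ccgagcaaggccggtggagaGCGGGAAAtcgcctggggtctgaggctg
They lie at chr1:128359725-128359835 on the minus strand (Mcm6), chr8:75109336-75109387 on the plus strand (Mcm5), chr5:138172021-138172068 on the minus strand (Mcm7), chr4:108579407-108579453 on the plus strand (Orc1) and chr11:98907993-98908040 on the plus strand (Cdc6). In Mcm6 and Mcm5 the 12 capitals in a row are 2 overlapping matches on opposite strands, and Mcm6 holds a further match nearer the gene start. A CCAAT box on either strand was in 60.8% of the members' windows, 37.4% of all windows and 39.0% of those of like CpG count. The motif TTTGAA or TTCGAA on either strand, named CHR and known from genes of late S phase and mitosis, was in 21.6%, 19.2% and 12.7%. Median GC content was 60% in the members' windows and 52.7% over all. The 17 members with an E2F match had a median difference between groups of 0.19 log2 units and the 24 without one 0.14, on the scale explained below. These matches describe letters in a window and do not show binding.

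**Figure D1:**
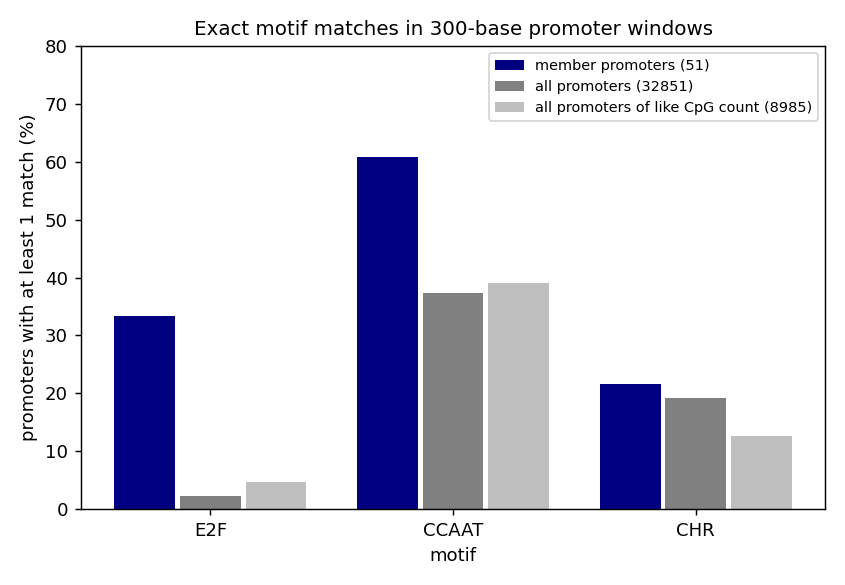
Share of promoter windows (percent, y axis) with at least 1 exact match to each motif (x axis), for the 51 windows of the members, all 32851 windows and the 8985 windows of like CpG count. The E2F bar of the members stands at 33.3%, against 2.26% and 4.79%.

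The arrays did not share a scale, which bears on every direction below. The median deposited intensity over all clusters was 25.6 to 39.8 in wild type and 18.6 to 28.8 in the knockout arrays, and the median gene lay at -0.44 log2 units (knockout minus wild type) on the deposited values. After quantile normalization it lay at -0.01. Differences are therefore given after quantile normalization of log2(intensity + 16), with standard errors, and "rose" and "fell" are kept for genes whose Benjamini-Hochberg adjusted p in limma's test reached 0.05 or less both there and on the deposited values, in 1 direction. Srsf1 itself had intensities of 666, 667 and 607 in the wild type arrays (replicates 1 to 3, the order used throughout). Its knockout arrays were all lower, at 242, 371 and 386, and whether the probes lie in the deleted part is not known here. Knockout replicate 1 was the one array with low Xist (9.95, against 2122 to 3532) and high signal of the Y-linked gene Eif2s3y (130, against 2.27 to 7.78), so it differed from the other arrays by sex, and results are also given without it. Albumin (Alb), the main hepatocyte secretory product, read 10035 to 11053 in wild type and 6937 to 10757 in knockout arrays, so this defining marker was high in both groups.

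Of the replication genes, each read by its brightest cluster, only Mcm6, a helicase subunit, passed the test, and it rose in the knockout. That is 1 of 49 higher and 0 lower, 2.04% called, while over all genes 0.842% were called higher and 1.40% lower, 2.24% in all. The share called in both fits was thus close to the background. The looser counts were above it after quantile normalization, but not on the deposited values. The fit after quantile normalization alone called 4 members higher (Mcm6, Prim1, Mcm3 and Dnmt1, 8.16%) and 0 lower, against 2.73% and 1.41% of all genes. An unadjusted p under 0.05 after quantile normalization was reached by 20 of the 49 (40.8%), against 15.3% of all genes. On the deposited values alone 1 was called higher (Mcm6) and 2 lower (Tk1 and E2f8), against 0.931% and 6.86%. There an unadjusted p under 0.05 was reached by 8 of the 49, a smaller share than the 5745 of 19123 over all genes. The count of 0 lower in both fits holds for the cluster with the highest mean over all arrays. For E2f8 a further cluster was brighter in every wild type array and dimmer in every knockout array, at -1.75 after normalization. With the median of both clusters, E2f8 passed both fits as lower (given below).

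The direction was more uniform than the calls. Differences were above 0 for 39 of the 49 after quantile normalization, against 48.8% of all genes, with a median of 0.19 beside -0.01. On the deposited values 13 were above 0, against 6.58% of all genes, and the median was -0.29 beside -0.44. Relative to the median gene, 39 of 49 lay above it after quantile normalization and on the deposited values, and 37 did so without knockout replicate 1. The members' median was 0.19 log2 units above the median gene after quantile normalization and 0.16 on the deposited values. Centring moves all genes of an array alike, so it gives the deposited value again. The 95% interval of the difference lay within 1 log2 unit of 0 for 41 of 49 members, a smaller share than the 17775 of 19123 over all genes. The other 8 members were Mcm2, Mcm3, Mcm4, Mcm5, Mcm6, Prim1, E2f1 and Gins4. After quantile normalization, knockout and wild type values did not overlap for 16 members that were higher, against 11.6% of all genes, and for 3 that were lower (Tk1, Slbp and Pcna), against 10.1%. In bulk samples like these, fewer cells of a type and less RNA per cell cannot be told apart.

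Without knockout replicate 1, the fit after quantile normalization called 15 members higher and 1 lower, against 9.74% and 5.40% of all genes. The 15 were Mcm3, Mcm4, Mcm5, Mcm6, Cdt1, Orc2, Gins1, Rfc4, Prim1, Prim2, Pole, Lig1, Rrm1, Dnmt1 and E2f1, and the 1 lower was Slbp. Passing both fits there were Mcm6, higher, and Slbp, lower, against 0.973% and 5.29% of all genes. The median over the members was then 0.24, beside -0.02 for all genes.

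**Figure D2:**
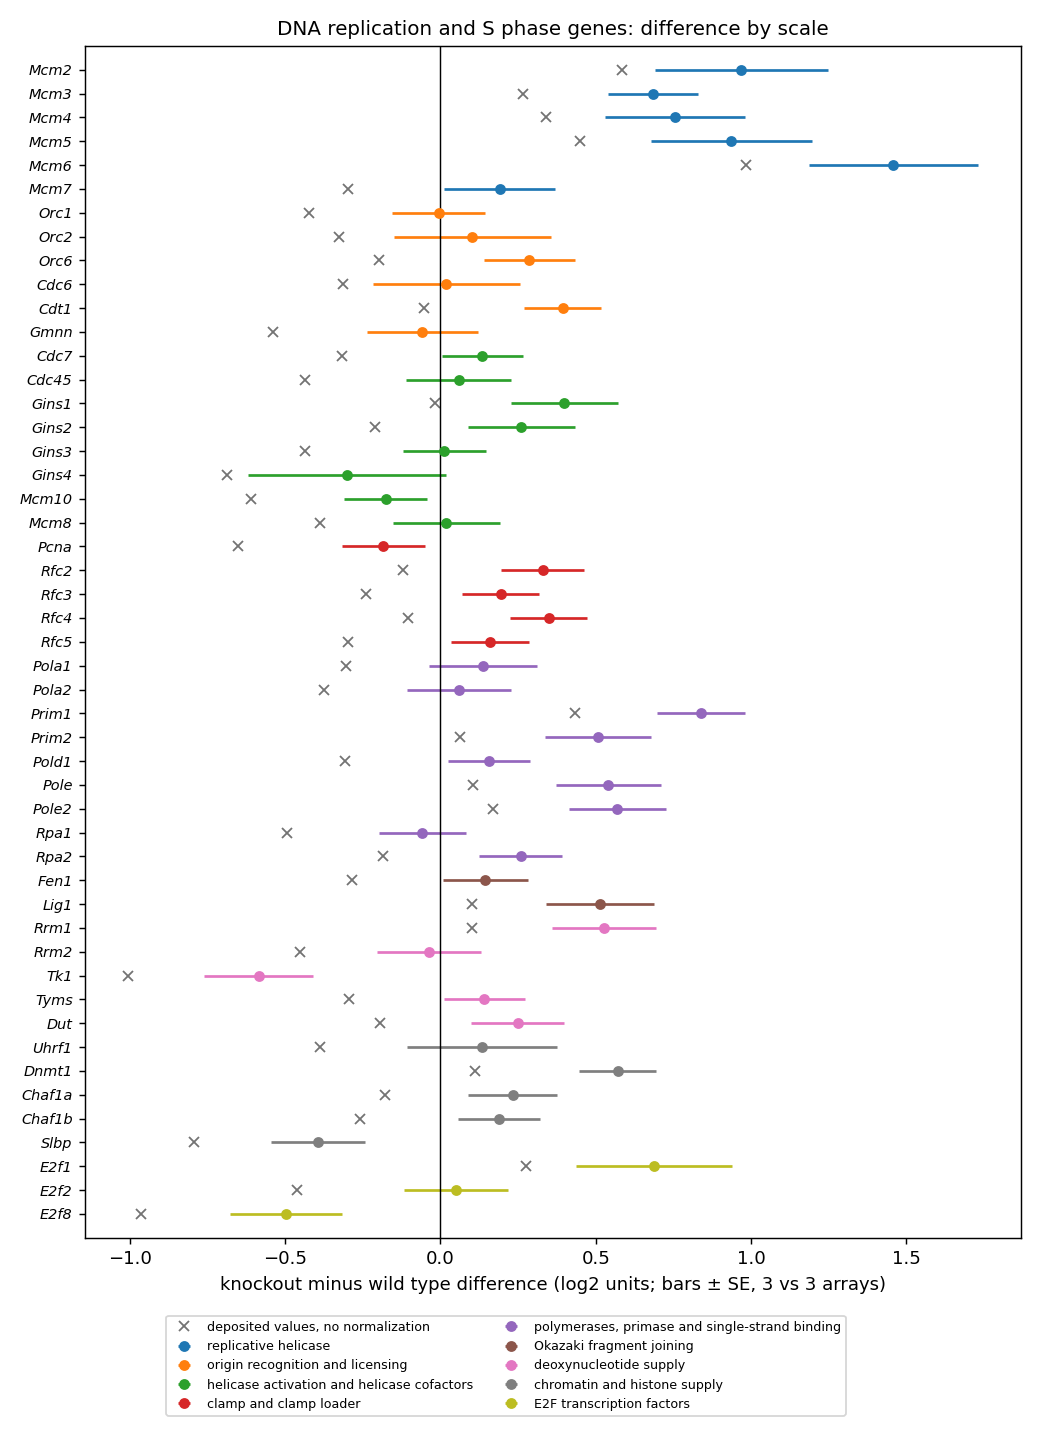
Knockout minus wild type difference (log2 units, x axis) of each member (y axis), coloured by role: circles with bars are the difference ± SE after quantile normalization and crosses the difference on the deposited values. Mcm6 lies farthest to the right at 1.46 and Tk1 farthest to the left at -0.58.

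The 6 subunits of the helicase ring had the highest median difference of any role group, 0.85 log2 units. Mcm6 (cluster 6762017) read 186, 163 and 250 in wild type against 462, 407 and 350 in knockout arrays. Every knockout array was above every wild type array, and the knockout mean (407 ± 56.1, SD, n = 3) was 204% of the wild type mean (199.6 ± 44.9). The difference was 1.46 ± 0.27 (limma adjusted p = 0.020) after quantile normalization and 0.98 (adjusted p = 0.0099) on the deposited values. The call rested on single arrays: without wild type replicate 1, wild type replicate 2 or knockout replicate 2 the adjusted p was 0.089, 0.081 and 0.058 after quantile normalization, and without knockout replicate 3 it was 0.060 on the deposited values. Over the 6 fits that leave out 1 array the difference ran from 1.22 to 1.77.

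Mcm2, Mcm3, Mcm4 and Mcm5, which share the ring with Mcm6, had positive differences on both scales but did not pass the test. Mcm2 read 28.7, 55.0 and 68.6 in wild type against 107.6, 87.0 and 54.9 in knockout arrays. The reading of 28.7 was below the median of all clusters on that array, 31.8. Mcm5 read 108.4, 99.6 and 141.5 against 231, 136.8 and 136.4. In both genes the groups overlapped on the deposited values, where wild type replicate 3 was above the lowest knockout array. Their differences were 0.97 ± 0.28 (adjusted p = 0.10) for Mcm2 and 0.94 ± 0.26 (adjusted p = 0.088) for Mcm5. Mcm4 read 68.1, 109.8 and 104.9 against 109.6, 125.8 and 129.9 and had a difference of 0.76 ± 0.22 (adjusted p = 0.112). Mcm3 read 71.6, 66.7 and 64 against 102.0, 75.4 and 77.4, with no overlap. Its difference of 0.68 ± 0.15 passed after quantile normalization (adjusted p = 0.033) and not on the deposited values (0.27, adjusted p = 0.447). The sixth subunit did not share this pattern. Mcm7 read 161.6, 201 and 165.6 against 198.2, 113.4 and 120.0, a difference of 0.19 ± 0.18 (adjusted p = 0.740) that was -0.30 on the deposited values and 0.02 without knockout replicate 1.

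Wild type replicate 3 had the highest normalized value among the wild type arrays for 6 of 6 helicase subunits. It was highest for 27 of the 49 members and for 24.8% of all genes. In the helicase group its median lay 0.48 log2 units above the genes' wild type means, while the knockout arrays had medians of 0.89, 0.84 and 0.69. Without wild type replicate 3 the Mcm6 difference was 1.77 (adjusted p = 0.012).

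**Figure D3:**
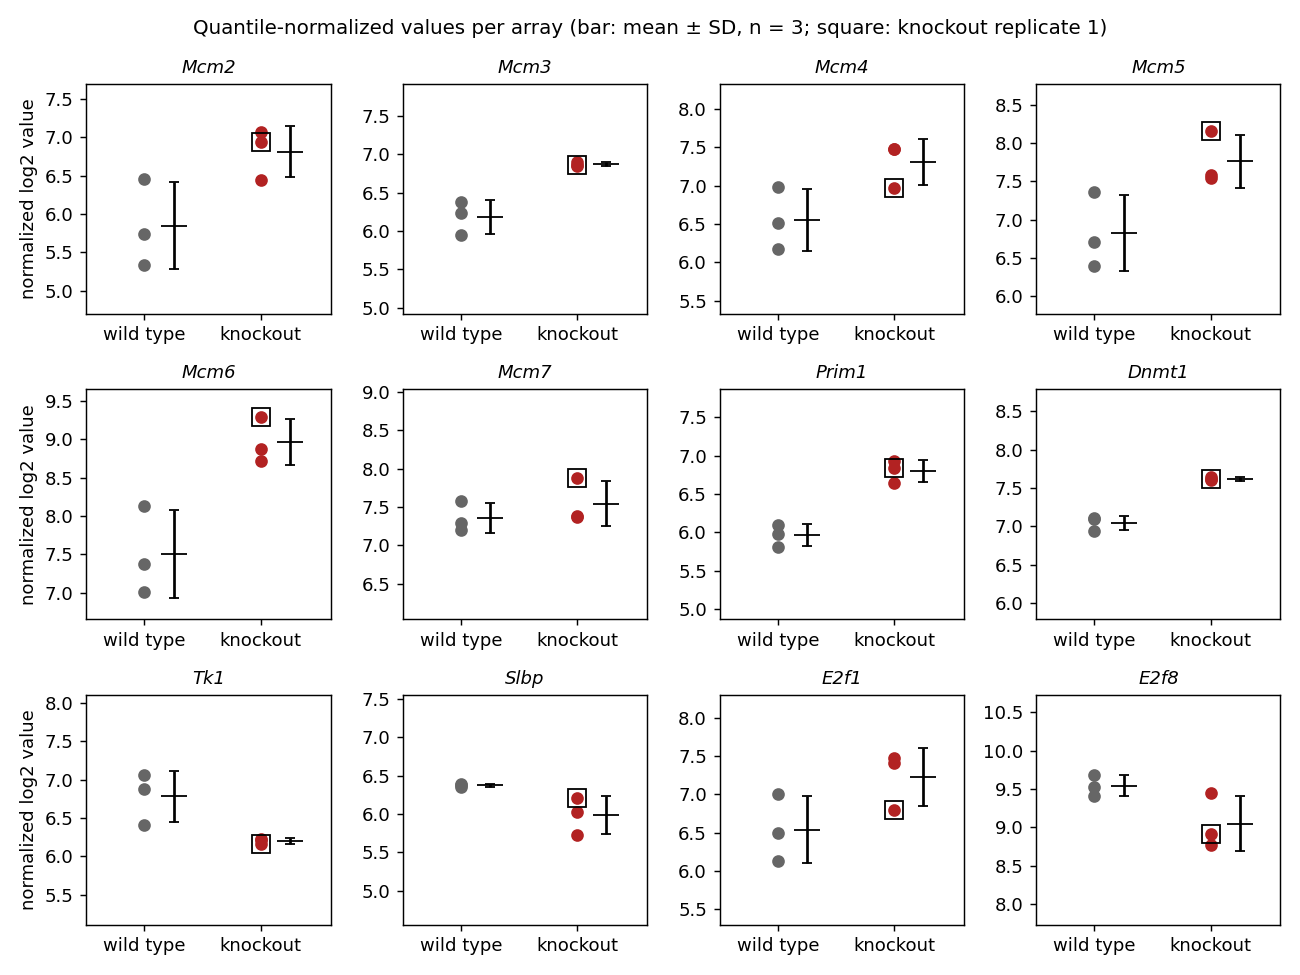
Quantile-normalized log2 values (y axis) of 12 members in the 3 wild type (grey) and 3 knockout (red) arrays, with mean ± SD beside them and knockout replicate 1 inside a square. Mcm6, Mcm3, Mcm5, Prim1 and Dnmt1 do not overlap between groups and are higher in the knockout, and Tk1 and Slbp are lower.

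The 6 genes of origin recognition and licensing, which act before the helicase, had a median difference of 0.06, and none passed in either fit. Single genes were spread from -0.06 to 0.39. Cdt1, which brings the helicase ring to origins, had the smallest p of them. It read 119.5, 128.6 and 96.3 in wild type against 123.9, 98.6 and 106.8 in knockout arrays, so the deposited values overlapped. After quantile normalization it differed by 0.39 ± 0.12 (adjusted p = 0.136) with no overlap, and on the deposited values by -0.05. Without knockout replicate 1 it passed after quantile normalization alone (0.43, adjusted p = 0.030). Orc1, the ATPase subunit of the origin recognition complex, was at -0.01 ± 0.15, with a 95% interval from -0.34 to 0.33. Cdc6, a loading ATPase, was at 0.02 ± 0.24, with an interval from -0.52 to 0.56. It was dim, and its reading of 13.4 in knockout replicate 2 was below the median of all clusters there, 18.6. Orc2, Orc6 and the Cdt1 inhibitor geminin (Gmnn) were at 0.10, 0.29 and -0.06, and Orc6 did not overlap between groups after normalization. Orc2 was 0.45 ± 0.12 (adjusted p = 0.025 after quantile normalization) without knockout replicate 1, which read 57.4 against 94.4 and 99.5 in the other knockout arrays.

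Among 8 genes of helicase activation and cofactors the median difference was 0.04. Gins1, a GINS subunit, had the smallest p and read 72.3, 88.9 and 70.6 in wild type against 74.1, 85.5 and 68.5 in knockout arrays. These readings were nearly the same in both groups, and the difference of 0.40 ± 0.17 (adjusted p = 0.307) appeared after normalization and was -0.02 on the deposited values. Gins2 and Gins3 were at 0.26 and 0.01, the activating factor Cdc45 at 0.06, the kinase Cdc7 at 0.14 and Mcm10, which acts at helicase activation, at -0.18. Mcm8, a relative of the ring subunits with a role in homologous recombination, was at 0.02. Gins4 had the widest error of the 49 (-0.30 ± 0.32): it read 334, 316 and 211 in wild type, and 97.5 in knockout replicate 1 against 216 and 225 in the other knockout arrays. Without that array its difference was 0.15.

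Most DNA synthesis genes lay above the median gene after normalization. Of 9 genes of the polymerases, primase and the single-strand binding protein, 8 had a positive difference after quantile normalization and the median was 0.26. Prim1, the catalytic subunit of the primase that starts each new strand, read 56.8, 59.0 and 50 in wild type against 99.98, 77.2 and 65.8 in knockout arrays. All 3 knockout arrays were higher. The difference was 0.84 ± 0.14 (adjusted p = 0.012) after quantile normalization and 0.43 (adjusted p = 0.248) on the deposited values, so it was not called in both. Prim2, the other primase subunit, was at 0.51 ± 0.17, and the polymerase epsilon genes Pole and Pole2 at 0.54 ± 0.17 and 0.57 ± 0.16. The alpha subunits Pola1 and Pola2 were at 0.14 and 0.06 and the delta catalytic subunit Pold1 at 0.16. The single-strand binding subunit Rpa1 read 599, 584 and 454 against 301, 451 and 403, and its groups overlapped only after normalization, where the difference was -0.06 ± 0.14. Rpa2 was at 0.26 ± 0.13.

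By the clusters used, the clamp gene Pcna was below 0 after normalization and 4 loader genes were above 0, and none of these was called. Pcna read 189.8, 239 and 160.4 in wild type against 146.4, 92.0 and 119.9 in knockout arrays, lower in every knockout array. Its difference was -0.18 ± 0.13 (adjusted p = 0.643) after quantile normalization, with a 95% interval from -0.49 to 0.12, and -0.65 (adjusted p = 0.128) on the deposited values. Of the loader subunits Rfc4 had the smallest p, with readings of 141.6, 165.7 and 119.4 against 144.3, 126.2 and 121.0 and a difference of 0.35 ± 0.12 (adjusted p = 0.192). Rfc2, Rfc3 and Rfc5 were at 0.33, 0.19 and 0.16, and these 4 loader genes were without overlap and higher after normalization while below 0 on the deposited values. The 95% intervals of Rfc3 and Rfc5 included 0, and a further Rfc2 cluster was at -0.18. For joining of lagging strand fragments, the ligase Lig1 was at 0.51 ± 0.17 (adjusted p = 0.170) with readings of 62.5, 76.2 and 70.5 against 74.2, 75.8 and 77.2. The flap nuclease Fen1 was at 0.14 ± 0.14.

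Within nucleotide supply the thymidine kinase Tk1, a salvage enzyme of S phase, was the lowest of the 49 genes by the clusters used. A further E2f8 cluster, at -1.75, was lower. Readings of Tk1 did not overlap. Tk1 read 124.1, 101.0 and 111.9 in wild type against 57.7, 41.3 and 45.3 in knockout arrays, and the knockout mean was 42.8% of the wild type mean. The difference was -0.58 ± 0.17 (adjusted p = 0.113) after quantile normalization, which did not pass, and -1.01 (adjusted p = 0.015) on the deposited values, which did. With arrays centred on their medians it was -0.69 (adjusted p = 0.037). On the deposited values the adjusted p was 0.274, 0.116 and 0.138 without wild type replicate 1, knockout replicate 2 and knockout replicate 3. Rrm1, the large subunit of ribonucleotide reductase, was at 0.53 ± 0.17 (adjusted p = 0.139), and Rrm2, the small subunit that cycles with S phase, at -0.04 ± 0.17 with an interval from -0.41 to 0.34. The thymidylate synthase Tyms was at 0.14 and the dUTPase Dut at 0.25.

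Of 5 genes that carry chromatin and its marks through S phase, Dnmt1 and Slbp stood at opposite ends. Dnmt1, the maintenance DNA methyltransferase, read 150.5, 154.2 and 115.0 in wild type against 168.5, 144.2 and 142.8 in knockout arrays. The deposited readings overlapped, and the difference was 0.57 ± 0.12 (adjusted p = 0.036) after quantile normalization against 0.11 (adjusted p = 0.740) before it. Its partner Uhrf1 was at 0.13 ± 0.24. The histone chaperone subunits Chaf1a and Chaf1b were at 0.23 and 0.19. Slbp, which binds the stem-loop at the end of replication-dependent histone mRNAs, read 82.1, 96.5 and 64.8 against 60.6, 25.6 and 37.9. Every knockout array was lower, at a mean of 51.0% of wild type. Its difference was -0.39 ± 0.15 (adjusted p = 0.240) after quantile normalization and -0.79 (adjusted p = 0.067) on the deposited values. Without knockout replicate 1 it was -0.51 ± 0.14, and both adjusted p-values passed (0.033 and 0.010).

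Histone genes, picked by their older symbols as a stand-in for replication-dependent ones, were set beside Slbp. This choice by name does not check that a gene is replication-dependent. Of 70 such genes 22 had a cluster of their own and 17 passed the filter, with pseudogenes among them. In the knockout 3 of these 17 rose and 0 fell, with a median of 0.25. The linker histone gene H1f2 read 180.2, 164.9 and 181.3 in wild type against 411, 653 and 468 in knockout arrays. H1f3, another linker histone gene, read 38.6, 35.0 and 36.2 against 76.4, 177.4 and 160.9. The histone H4 gene H4c12 read 84.5, 30.2 and 54.6 against 247, 219.8 and 372. In all 3 genes every knockout array was higher than every wild type array. The differences were 1.89 ± 0.19 for H1f2 (adjusted p = 0.0012), 1.82 ± 0.33 for H1f3 (adjusted p = 0.016) and 2.46 ± 0.31 for H4c12 (adjusted p = 0.0033). Histone copies are nearly identical in sequence, so which copy the H4c12 cluster reads is uncertain, and any relation to Slbp was not tested.

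The 3 E2F factors among the members did not move together. E2f1, an activator of S phase genes, read 90.5, 78.8 and 106.7 in wild type against 97.0, 124.6 and 122.6 in knockout arrays, and had a difference of 0.69 ± 0.25 (adjusted p = 0.206). E2f2, another activator, read 1140, 1233 and 965 against 899.9, 784 and 727, and its difference of 0.05 ± 0.17 after normalization was -0.46 on the deposited values. E2f8, a repressor that in mouse liver takes part in polyploidization, read 1078, 879.7 and 681 against 361, 378 and 603. Its deposited values did not overlap, and the knockout mean was 50.9% of wild type. The difference was -0.50 ± 0.18 (adjusted p = 0.207) after quantile normalization and -0.96 (adjusted p = 0.0076) on the deposited values. A further E2f8 cluster (6960568) had wild type intensities of 1438, 1072 and 695 against 163.6, 207 and 284, a normalized difference of -1.75. With the median of both clusters E2f8 was at -1.12 (adjusted p = 0.014) and passed both fits, as it did without knockout replicate 3 (-0.70, adjusted p = 0.045). On the deposited values the adjusted p was 0.247, 0.093 and 0.121 without wild type replicate 1, wild type replicate 2 and knockout replicate 2. The related repressor E2f7, no member of the list and looked up after these values were seen, was at 0.03 ± 0.17 (adjusted p = 0.969).

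There were 8 members with a further cluster. In Mcm7, Orc1, Rfc5, Fen1, Lig1 and E2f8 both clusters had a difference of the same sign. The further cluster of Lig1 was at 1.03. In Gmnn (0.31 against -0.06) and Rfc2 (-0.18 against 0.33) the further cluster and the one used had opposite signs.

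**Figure D4:**
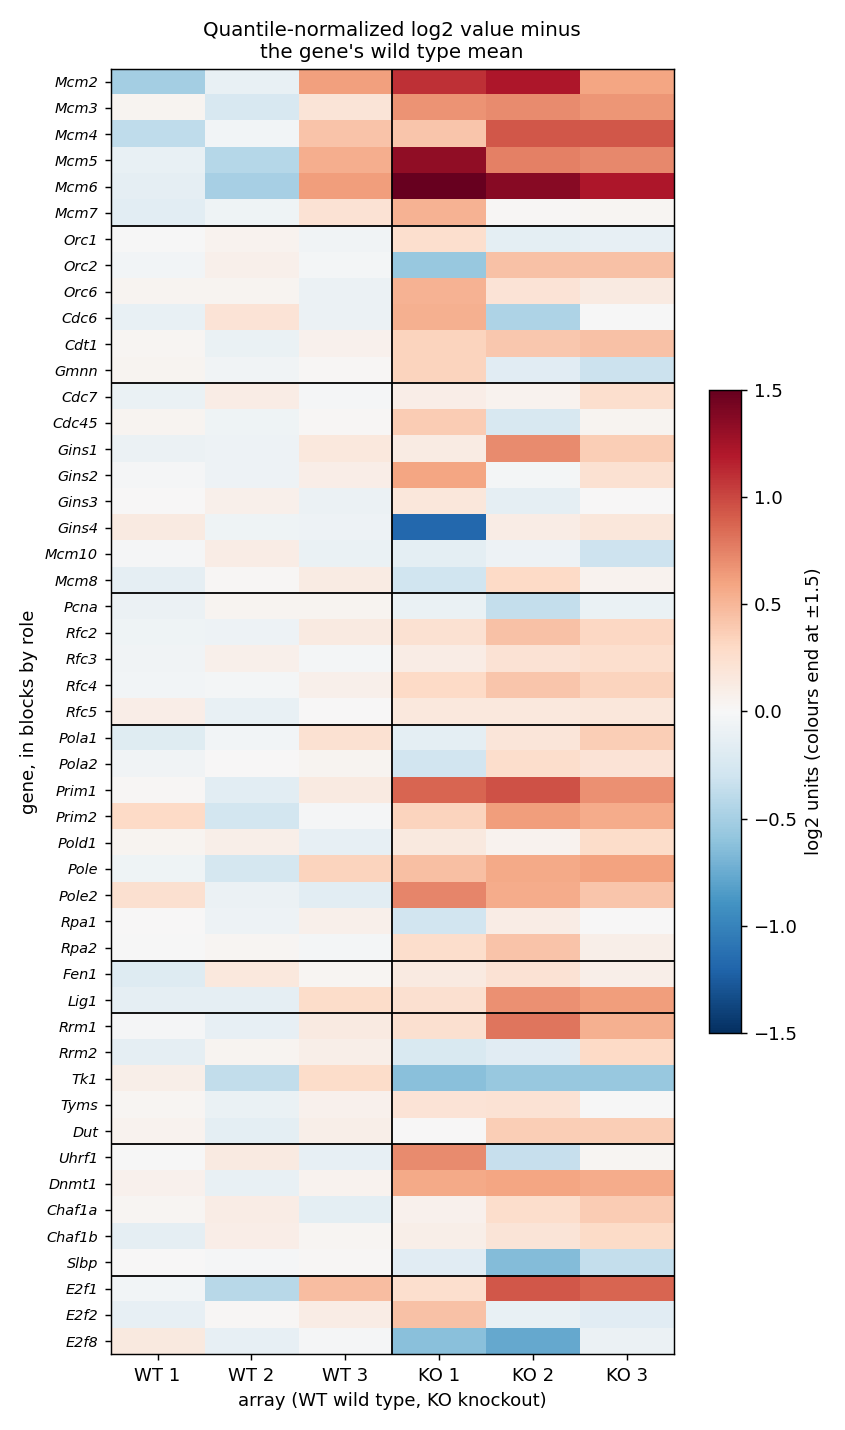
Quantile-normalized log2 value of each member (rows, in blocks by role) in each array (columns) minus the gene's wild type mean, from blue (lower) to red (higher), with colours ending at 1.5 log2 units. The helicase block is redder in the 3 knockout arrays and in wild type replicate 3 than in the other wild type arrays.

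Across the wild type arrays the members' median lay at -0.02, -0.06 and 0.05 log2 units from the wild type means. In the knockout arrays it lay at 0.24, 0.22 and 0.25, so the median did not set knockout replicate 1 apart. That array was the lowest of the knockout arrays for 23 of the 49 members (46.9%) and the highest for 15 (30.6%), against 40.6% and 43.5% of all genes. It was thus highest or lowest for most members. It lay between the other knockout arrays for 11 of the 49 members and for 3044 of all 19123 genes. Among arrays that are alike, a larger share of all genes would lie between. Orc2 and Gins4 were lowest in knockout replicate 1, and Cdc6, Cdc45, Gmnn and Uhrf1 highest.

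Other genes of replication and of the cell cycle steps around it gave no call in both fits. Of 38 further genes, chosen by function, 36 were measured, and 0 were called higher or lower by limma in both fits. Over all genes 0.842% were called higher and 1.40% lower, so 0 of 36 was close to the background. An unadjusted p under 0.05 after quantile normalization was reached by 9 (25%, against 15.3% of all genes). That fit alone called 5 higher (13.9%, against 2.73%): Dbf4, the partner that activates the kinase Cdc7 (1.25 ± 0.18, adjusted p = 0.0056), the histone chaperone Asf1b (1.03 ± 0.16), the phosphatase Cdc25a (0.91 ± 0.15), the G1/S cyclin Ccne1 (0.89 ± 0.19) and the replisome protein Wdhd1 (0.69 ± 0.14). Dbf4 read 62.5, 70.3 and 79.1 in wild type against 149.4, 131.7 and 131.9 in knockout arrays, and its adjusted p on the deposited values was 0.058. Cyclin A2 (Ccna2), which acts in S phase and mitosis, was at 1.74 ± 0.42 (adjusted p = 0.056) and passed on the deposited values only. Without knockout replicate 1, Dbf4 (1.30) and Ccna2 (1.39) passed both fits, with adjusted p of 0.048 and 0.029 on the deposited values, and the fit after quantile normalization called 11 of the 36 higher. The median of the 36 was 0.09.

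Of 10 genes of the retinoblastoma and E2F families outside the list, 0 were called in both fits, and 3 had an unadjusted p under 0.05 after quantile normalization. The retinoblastoma relative Rbl2, a repressor of resting cells, read 804, 854 and 582 in wild type against 246, 394 and 394 in knockout arrays, with no overlap. It differed by -0.67 ± 0.17 (adjusted p = 0.067) after quantile normalization and by -1.09 (adjusted p = 0.0018) on the deposited values. Without knockout replicate 1 it was the 1 gene of the 10 that passed both fits, at -0.48 (adjusted p = 0.0046 after quantile normalization and 0.027 on the deposited values). Its relative Rbl1 was at 0.80 ± 0.19 (adjusted p = 0.051).

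Mitosis genes gave more calls and higher values. Of 22 measured mitosis genes 9 rose and 0 fell, with a median of 1.33 against 0.19 for the replication genes. The 9 were Ccnb2 (2.39 ± 0.51), Cdk1 (1.84 ± 0.29), Plk1 (1.73 ± 0.39), Top2a (1.52 ± 0.35), Kif11 (1.34 ± 0.21), Aurkb, Mad2l1, Prc1 and Bub1, and Mki67 was at 2.0 ± 0.49 (adjusted p = 0.061). There were also 9 calls without knockout replicate 1, with Mki67 and Kif20a in place of Kif11 and Bub1. Wild type replicate 3 was the highest wild type array for 20 of the 22. The difference between the lists was not tested, and higher values of cell cycle genes in these arrays were known beforehand.

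**Figure D5:**
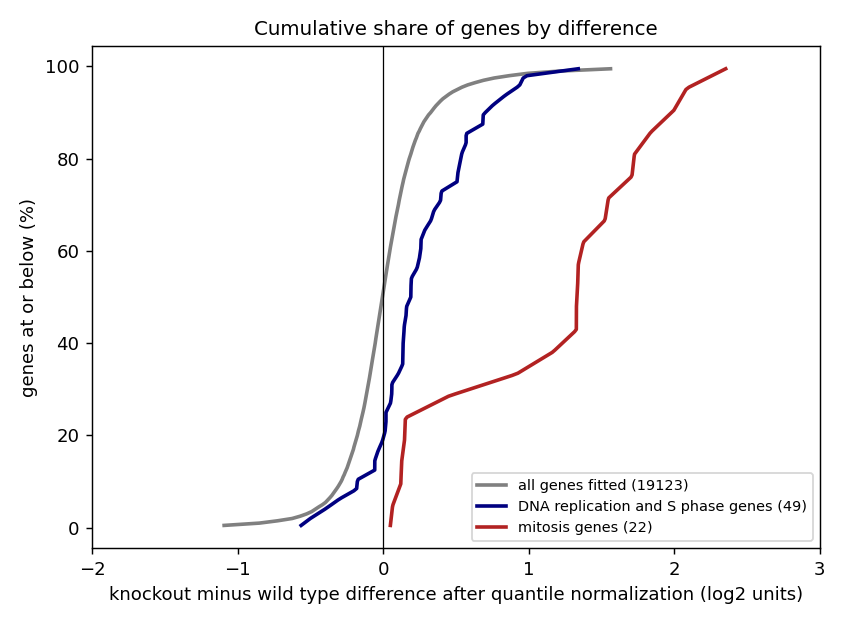
Cumulative share of genes (percent, y axis) at or below a knockout minus wild type difference after quantile normalization (log2 units, x axis) for the 49 members, 22 mitosis genes and all 19123 genes fitted. The members' curve crosses 50% at 0.19, to the right of that of all genes at -0.01, and the curve of the mitosis genes crosses at 1.33.

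Markers of cells other than hepatocytes were measured in the same arrays, and their part in the values above was not tested. Of 12 Kupffer cell and macrophage markers 1 rose (Cd68, 1.81 ± 0.35, adjusted p = 0.021) and 0 fell, with a median of 0.50. Their summed normalized intensity was 828 to 1345 in wild type and 1654 to 1950 in the knockout, without overlap. Before normalization these sums overlapped (789 to 1917 against 1330 to 1746) and the median was 0.06. Of 11 stellate cell and fibroblast markers 0 were called in both fits, and the median was 0.36. Vim (1.18, limma adjusted p = 0.0081) and Rgs5 (0.86, adjusted p = 0.029) passed after quantile normalization only. Normalized sums of the 11 were 1940 to 2300.4 against 2832 to 3739, while deposited sums overlapped (1835 to 2950 against 2328 to 3220) with a median of -0.04. By contrast, 9 endothelial markers had a median of -0.06 with sums of 1116 to 1572 against 1109 to 1399, 8 lymphocyte markers had 0.09 with 661 to 687 against 644 to 835, and 6 neutrophil markers had -0.01 with 265 to 277 against 274 to 300.3. None of these 3 lists held a call in both fits, and Ptprc of the lymphocyte list passed after quantile normalization only (0.71, adjusted p = 0.030). Of 4 bile duct markers 0 were called, with a median of 0.05 and sums of 406 to 428 against 448 to 568. Of 4 erythroid progenitor markers the transferrin receptor Tfrc, which many dividing cells use, rose by 1.91, while Klf1, an erythroid factor, was at -0.73 (adjusted p = 0.057) and their median was -0.21, with sums of 720.2 to 756 against 792 to 1117. Hepatocyte markers (9) had 0 calls in both fits (Alb passed after quantile normalization only, at -0.34 ± 0.05), a median of -0.08 and sums of 58681 to 60287 against 51973 to 56363. The deposited sums of the bile duct and erythroid lists overlapped too, and those of the hepatocyte list did not (60988 to 67788 against 38358 to 57422). The matrix protein gene Dcn was called higher without knockout replicate 1, and Klf1 and the gluconeogenesis gene Pck1 lower. No measured marker read 0, and Cd3g, Ms4a1, Nkg7, S100a9 and Ly6g were too dim for the filter.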

How the data were processed

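The labelled genotype set the groups, while replicate numbers follow the order of the samples and only name arrays. The deposited values are linear array intensity summaries made by the authors with PLIER, and the build named is mm9, both per the submitters' processing notes. Neither the version of PLIER nor any scaling across arrays is stated there. No column was left unused. Of 238609 clusters, 24343 carried 1 gene symbol in the platform annotation and 1797 several; the latter were named as no gene. Gene identifiers of 23782 clusters matched RefSeq (GRCm38.p6), used for names and promoter sequences only; no array coordinates are printed.

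Values were taken as log2(intensity + 16), which understates differences of dim genes. A cluster had to reach the 40th percentile of the mean log2 values (5.18), and the brightest per gene was kept, leaving 19123 of 20261 genes. Knockout was compared with wild type with lmFit and trended eBayes of limma 3.58.1 (R 4.3.3), without covariates, after quantile normalization of all clusters and on the deposited values, with Benjamini-Hochberg adjustment over all genes fitted and a threshold of 0.05 in both. The number of arrays limits the precision. Both fits were first tested on simulated data, with 200 genes changed. Because the knockout arrays read lower as a whole, passing on the deposited values is a stricter condition for a rise than for a fall.

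The members and all gene lists were chosen with earlier results of these data known. All 49 members could be named; array values are printed for the called member, the member of smallest p in each role group without a call, the 3 lowest and the 3 brightest in wild type, and for others added after their values were seen (the remaining helicase subunits, Pcna and members that changed with the arrays used). From other lists, called genes and up to 4 by p are named, plus a few added after their values were seen (E2f7, Ccna2, Rbl2, Ccne1, Wdhd1, Mki67, Kif20a, Klf1, Dcn, Pck1, Alb). The comparison was repeated with a pseudocount of 1 or 64, without the filter or with one at the 60th percentile, median centring, deposited values alone, each gene's median cluster value, robust variances, no intensity trend, and leaving out each array.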

Additional observations from a re-analysis of the deposited data

How the results depend on the processing

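The number of members called in both fits was 1 in the main setting and with pseudocounts of 1 and 64, no filter, a filter at the 60th percentile, robust variances or no intensity trend. It was 2 with median centring (Mcm6 and Tk1) and with each gene's median cluster value (Mcm6 and E2f8), 3 on the deposited values alone (Mcm6, Tk1 and E2f8) and 4 after quantile normalization alone, a rule chosen after seeing the data. Leaving out single arrays it ran from 0 (without wild type replicate 1 or 2 or knockout replicate 2) to 2 (Mcm6 and Slbp, without knockout replicate 1), and the 1 called without knockout replicate 3 was E2f8. The members' median difference was 0.13 with a pseudocount of 64, 0.035 with median centring and -0.29 on the deposited values, and 0.17 to 0.24 without single arrays.

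None of the differences that changed sign was called. On the deposited values these were Mcm7 (-0.30), Orc2 (-0.33), Orc6 (-0.20), Cdc6 (-0.31), Cdt1 (-0.054), Cdc7 (-0.32), Cdc45 (-0.44), Gins1 (-0.019), Gins2 (-0.21), Gins3 (-0.44), Mcm8 (-0.39), Rfc2 (-0.12), Rfc3 (-0.24), Rfc4 (-0.10), Rfc5 (-0.30), Pola1 (-0.30), Pola2 (-0.38), Pold1 (-0.31), Rpa2 (-0.18), Fen1 (-0.29), Tyms (-0.29), Dut (-0.19), Uhrf1 (-0.39), Chaf1a (-0.18), Chaf1b (-0.26) and E2f2 (-0.46), on a scale whose median gene was at -0.44. With median centring they were Orc2 (-0.0054), Cdc45 (-0.12), Gins3 (-0.12), Mcm8 (-0.067), Pola2 (-0.055), Uhrf1 (-0.067) and E2f2 (-0.14), with a pseudocount of 1 Cdc6 (-0.0049), and with the median of clusters Gmnn (0.13). Without single arrays the ranges that crossed 0 were -0.14 to 0.067 for Orc1, -0.068 to 0.45 for Orc2, -0.24 to 0.27 for Cdc6, -0.26 to 0.075 for Gmnn, -0.10 to 0.20 for Cdc45, -0.064 to 0.084 for Gins3, -0.53 to 0.15 for Gins4, -0.12 to 0.18 for Mcm8, -0.045 to 0.24 for Pola2, -0.14 to 0.057 for Rpa1, -0.20 to 0.061 for Rrm2, -0.16 to 0.36 for Uhrf1 and -0.15 to 0.16 for E2f2. In all, 664 of 734 differences of single members kept their sign and their side of the threshold, 60 changed sign, 6 passed newly and 4, all of Mcm6 without single arrays, no longer passed. The causes were not tested. No paired analysis was possible because the replicate numbers only name arrays and do not pair them.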
